A study of Mus musculus with 27 samples.

Results

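The genes described here encode splicing factors and proteins of the small nuclear ribonucleoproteins (snRNPs) in mouse embryonic stem cells. They are the rows of the deposited RNA table that are typed c, for protein-coding, and whose symbol begins with Srsf, Hnrn, Snrp, Sf3 or U2af. The rule took 49 of 38582 rows, or 49 of 20192 protein-coding rows, and used no measured value. It gave 8 SR proteins, 18 hnRNPs, 12 snRNP proteins, 8 subunits of SF3A and SF3B and 3 U2AF genes. Srsf3, Srsf7 and Srsf9 carry a matching symbol but are typed nc in the table, so the rule left them out.

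The series asks what WDR43, a nucleolar WD-repeat protein, does on chromatin and to Pol II transcription in these cells. RNA was sequenced in 2 shCtl and 2 shWDR43 libraries, from wild-type cells that received a control short hairpin RNA or one against WDR43, and the table is described as spike-in RNA-seq. Chromatin immunoprecipitation (ChIP) against the FLAG tag mapped WDR43 in Fbio-tagged cells given the solvent DMSO, DRB (an inhibitor of the kinase that lets paused Pol II elongate) or ActD (actinomycin D, which blocks transcription), and in cells labelled FB and cFB-KI, with 1 library each. Of Pol II, 3 forms were mapped, each in 2 libraries of shCtl and 2 of shWDR43: hypophosphorylated (hypoP, the 8WG16 antibody), phosphorylated on serine 5 (Ser5P) and phosphorylated on serine 2 (Ser2P). The labels give no clone, dose or time, no genotype for the FB, cFB-KI and Ser2P libraries or for the hypoP libraries of shWDR43, and do not say whether 1 and 2 of a ChIP pair are separate cultures. They also describe the hypoP libraries of the 2 groups in different words, and whether these were made together is not given.

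Introns are removed by the spliceosome, which is built from snRNPs. In most snRNPs a small nuclear RNA carries a ring of Sm proteins, encoded by Snrpb or its relative Snrpn and by Snrpd1, Snrpd2, Snrpd3, Snrpe, Snrpf and Snrpg, beside proteins specific to 1 particle. U2AF binds the 3' splice site, SF3A and SF3B hold the U2 snRNP on the branch point, SR proteins mostly favour exon inclusion from exonic enhancers, and hnRNPs coat nascent RNA and often oppose them. Many of these genes are expressed at high levels in dividing cells, and several SR and hnRNP genes adjust their own output through exons that expose the transcript to nonsense-mediated decay.

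Promoter sequence from RefSeq (build GRCm38.p6) was matched by symbol for 43 of the 49 genes, 33 of them with 1 entry. The 250 bases before the start are shown for Hnrnpd, which held a start peak in the most lists, for Srsf2 and Snrpe, whose RNA had the lowest fold changes of the SR and of the snRNP proteins with 1 entry, and for 2 of the 4 starts of Hnrnpf, which had peaks inside the gene in 16 lists and at its listed start in 5 of them. Capitals mark matches on either strand, which may overlap, to the TATA box spelled TATAAA and the binding motif of the factor NF-Y spelled CCAAT. They also mark 1 spelling of the site that ETS factors bind, CCGGAAG, the E-box spelled CACGTG and the GC box spelled GGGCGG. The windows are chr5:99978939-99979188 (Hnrnpd), chr11:116853095-116853344 (Srsf2) and chr1:133610281-133610530 (Snrpe), all on the minus strand, and chr6:117900090-117900339 and chr6:117906532-117906781 (Hnrnpf, first and second start), on the plus strand.
Hnrnpd: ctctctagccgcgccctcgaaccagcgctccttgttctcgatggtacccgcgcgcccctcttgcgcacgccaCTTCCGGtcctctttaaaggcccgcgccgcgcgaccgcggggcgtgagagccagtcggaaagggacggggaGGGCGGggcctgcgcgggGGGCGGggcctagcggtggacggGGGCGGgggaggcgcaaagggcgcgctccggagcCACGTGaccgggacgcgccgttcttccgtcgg
Srsf2: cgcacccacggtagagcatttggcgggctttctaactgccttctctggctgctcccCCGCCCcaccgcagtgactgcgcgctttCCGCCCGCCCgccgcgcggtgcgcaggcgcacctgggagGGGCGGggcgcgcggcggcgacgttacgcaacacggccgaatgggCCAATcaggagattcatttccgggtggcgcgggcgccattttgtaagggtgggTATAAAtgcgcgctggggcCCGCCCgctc
Snrpe: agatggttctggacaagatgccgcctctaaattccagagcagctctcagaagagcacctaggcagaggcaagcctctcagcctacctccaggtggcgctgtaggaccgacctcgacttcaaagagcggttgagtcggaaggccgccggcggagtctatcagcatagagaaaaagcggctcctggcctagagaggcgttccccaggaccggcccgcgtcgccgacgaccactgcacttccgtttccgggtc
Hnrnpf, first start: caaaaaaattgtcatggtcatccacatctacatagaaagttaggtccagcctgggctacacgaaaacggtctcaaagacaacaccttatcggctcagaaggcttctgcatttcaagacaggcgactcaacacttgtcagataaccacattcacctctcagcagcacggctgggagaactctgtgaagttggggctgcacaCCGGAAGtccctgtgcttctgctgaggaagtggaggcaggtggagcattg
Hnrnpf, second start: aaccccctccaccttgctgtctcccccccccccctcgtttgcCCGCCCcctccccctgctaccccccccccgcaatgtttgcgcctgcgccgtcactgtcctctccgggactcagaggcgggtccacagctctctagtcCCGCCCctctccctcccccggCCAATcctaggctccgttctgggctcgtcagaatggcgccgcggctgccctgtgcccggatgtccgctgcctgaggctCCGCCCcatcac

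Hnrnpd held 3 GC boxes, an E-box 32 bases before the start and 1 CCGGAAG. Srsf2 held 5 GC boxes, a CCAAT box 82 bases and TATAAA 29 bases before the start. Snrpe held none of the 5 motifs as spelled here in this window, and other spellings were not searched. The second start of Hnrnpf held 3 GC boxes and a CCAAT box, and the first held 1 CCGGAAG and no GC box. GC content was 70.8% in the second and 50.4% in the first. Over the 61 windows of the splicing genes, CCGGAAG stood in 27.9%, against 14.5% of 10347 windows of expressed protein-coding genes and 6.91% of all 32851 windows. CCAAT stood in 45.9%, 35.7% and 33.8% of the same 3 sets, GGGCGG in 65.6%, 60.2% and 32.7%, CACGTG in 8.20%, 8.91% and 6.02%, and TATAAA in 8.20%, 5.92% and 12.4%. Windows of 1 gene can overlap, and the shares are descriptions of letters, not of bound sites.

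The RNA of nearly the whole family was lower in shWDR43. Of 48 members with a mean of at least 1 FPKM (fragments per kilobase of transcript, on the deposited spike-in scale), 45 fell, 0 rose and 3 did not pass (limma, Benjamini-Hochberg adjusted p under 0.05), while 42.7% of all 12452 tested genes fell and 6.10% rose. The median log2 fold change of the members was -0.92, against -0.39 for all tested genes. In 47 of the 48, both shWDR43 libraries lay below both shCtl libraries, against 63.6% of all tested genes. The members together summed to 11195 and 10902 FPKM in the shCtl libraries and to 6009 and 5016 in the shWDR43 libraries. That was 2.23% and 2.16% of all protein-coding FPKM in shCtl and 1.86% and 1.70% in shWDR43, so their share was also lower in both shWDR43 libraries. Srsf12, the remaining member, stood at 0.6 and 0.2 FPKM in shCtl and 0.8 and 0.5 in shWDR43, under the filter.

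Wdr43 itself had 82.3 and 78.2 FPKM in the shCtl libraries, against 21.2 and 20.7 in shWDR43 (log2 fold change -1.89, limma adjusted p = 7.51e-04). Stem cell markers were present in every library, with the sum of 6 genes at 4357 and 4398 FPKM in shCtl and 2490 and 2356 in shWDR43. Of these 6 genes 5 fell and 0 rose. Of 7 fibroblast markers, 4 were below 1 FPKM in all 4 libraries, and 2 of these, Dcn among them, were listed at 0 throughout. The 7 summed to 29.2, 40.4, 35.6 and 61.6 (1 fell, 0 rose). Of 3 trophectoderm markers 2 rose, with sums of 4.70 and 5 FPKM in shCtl and 10.1 and 12.4 in shWDR43, and of 4 endoderm markers 1 rose, with sums of 1.90 and 1.60 and then 4 and 3.80. The 3 neuroectoderm markers summed to 9.10, 7.70, 6.20 and 6.30 (1 fell) and the 3 mesoderm markers to 1.20, 1.60, 1.20 and 1.30. The part of these cell types in the results was not tested. Whether lower RNA reflects less RNA per cell or fewer cells of a type cannot be told apart in bulk samples. Centring each library on its median, which moves every gene by 0.33, left 38 members lower and 0 higher, against 20.9% and 13.0% of all tested genes. With no filter on low values 4 members passed (46 at an unadjusted limma p under 0.05), and their median log2 fold change over all members was -0.91. The share of all genes that passed without a filter is not given here. With 1 library left out, 1 residual degree of freedom remains, so only fold changes are given for those fits. The median log2 fold change was then -0.80 to -1.03, and 47 or 48 of the 48 members were below 0.

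**Figure D1:**
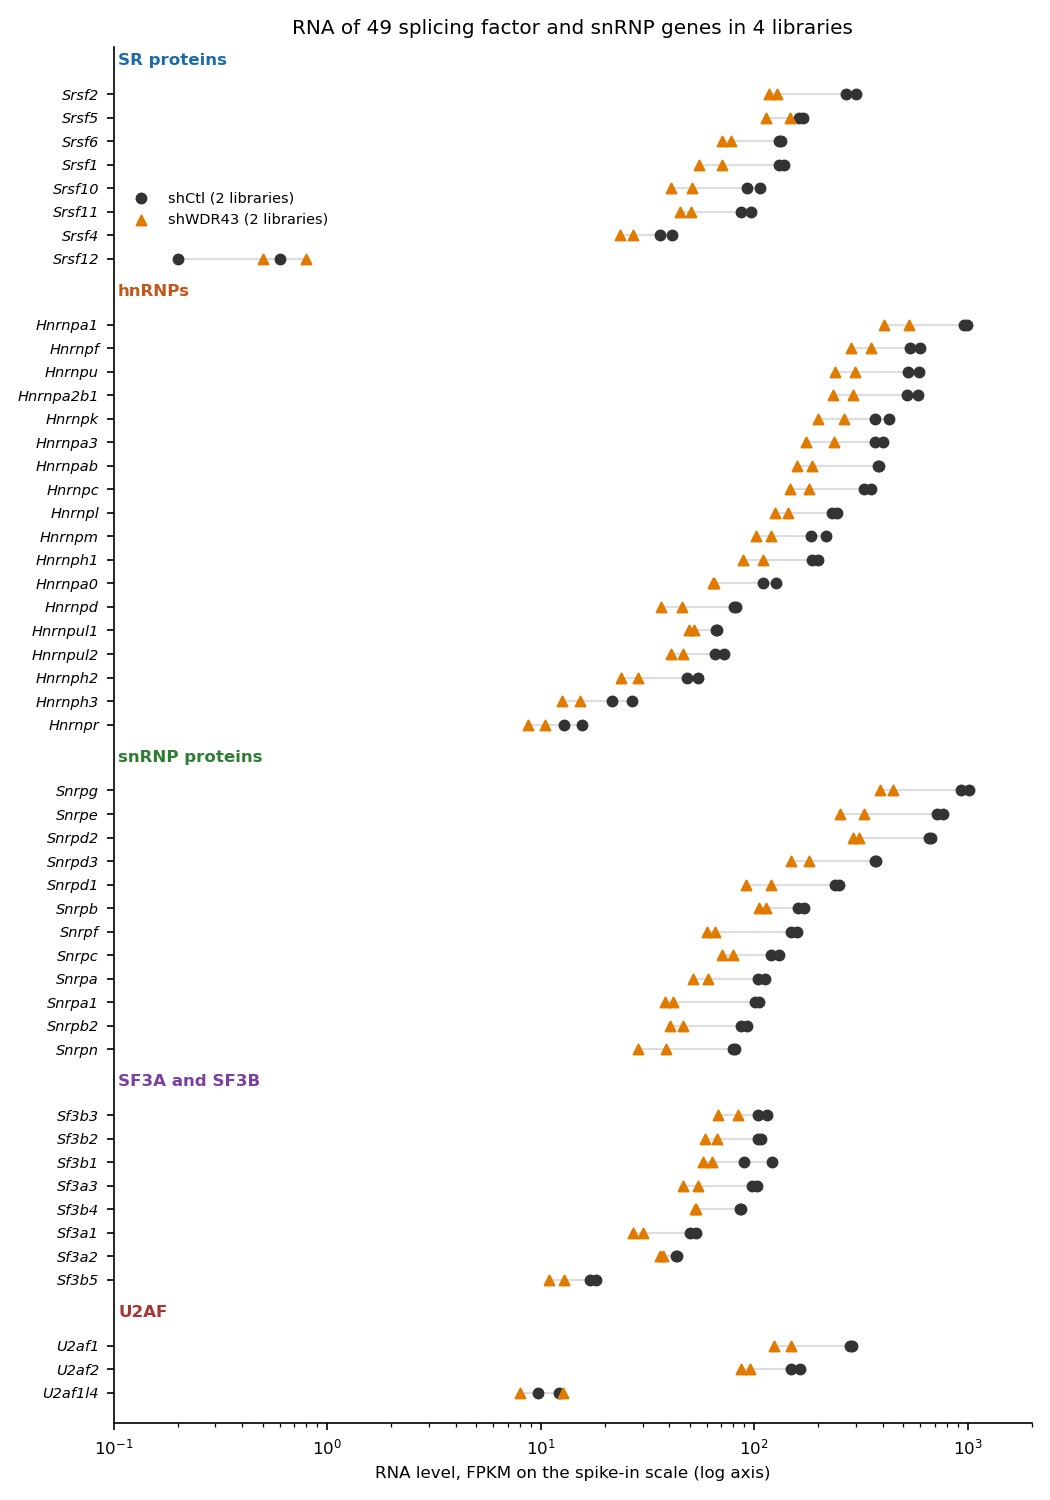
RNA level of each of the 49 genes in FPKM (log axis), with black circles for the 2 shCtl and orange triangles for the 2 shWDR43 libraries. In 47 of the 48 tested genes both triangles lie left of both circles, and the exception is U2af1l4.

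SR proteins carry RNA-binding domains and an arginine-serine tail, and 6 of the 7 tested genes fell, with a median of -0.92. Srsf2, whose product binds exonic enhancers, was the most abundant (chr11:116711211-116714408, mm9), at 270.5 and 300.6 FPKM in shCtl and 128.2 and 117.2 in shWDR43. The means were 286 ± 21.3 and 123 ± 7.78 FPKM (SD, n = 2 each), and the log2 fold change was -1.21 ± 0.12 (SE, limma adjusted p = 0.00112). Both shWDR43 libraries lay far below both shCtl libraries. Srsf10, a splicing repressor when dephosphorylated, stood at 106.4 and 92.4 in shCtl and 50.9 and 40.8 in shWDR43 (-1.10), and Srsf1, the founding member, at 137.4 and 130.1 and then 70.4 and 55.3 (-1.09). These groups do not overlap. Srsf11 (-0.92) and Srsf6 (-0.82) also fell. Srsf4 fell least, from 36.1 and 41.0 to 27.1 and 23.5 FPKM (-0.59), and did not pass after centring (-0.26, limma adjusted p = 0.128).

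Srsf5 did not pass. It stood at 169.4 and 162.6 FPKM in shCtl and 147.4 and 113.7 in shWDR43 (log2 fold change -0.36, limma adjusted p = 0.0857). Both shWDR43 libraries lay below both shCtl libraries, but far apart from each other, and the fold change was -0.03 after centring. An unnamed noncoding row, XLOC_005478, overlaps 40.8% of the Srsf5 locus and had 341.1, 290.4, 276.4 and 184.7 FPKM in the same order, so reads of the 2 may not be separable. Srsf3, Srsf7 and Srsf9, left out by their type, stood beside the others at -1.16, -1.18 and -0.87, and all 3 passed (limma adjusted p = 0.00142, 0.00130 and 0.00217).

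All 18 hnRNP genes fell, with a median of -0.88 and a range from -1.15 to -0.38. Hnrnpa1, a shuttling repressor of exon inclusion and the most abundant of them, had 996.4 and 960.1 FPKM in the shCtl libraries, against 530.9 and 404.2 in shWDR43. Its means were 978 ± 25.7 and 468 ± 89.6 FPKM (SD, n = 2 each), and on the log2 scale it changed by -1.08 ± 0.14 (SE, limma adjusted p = 0.00199). The gap between the shWDR43 libraries was wider than that between the shCtl libraries, and the groups do not overlap. A noncoding row, Gm5643, covers 99.5% of the Hnrnpa1 locus with 13.2, 15.3, 6.8 and 6.7 FPKM, which limits how reads there could be assigned. Hnrnpab, an A/B-type RNA- and DNA-binding protein, had the lowest fold change, from 378.7 and 383.8 to 186.3 and 157.9 FPKM (-1.15).

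Hnrnpa2b1 (-1.07), a relative of Hnrnpa1, Hnrnpu (-1.06), a scaffold-attachment factor that also binds RNA, and Hnrnpc (-1.05), which binds uridine-rich tracts of nascent RNA, fell by nearly the same amount. Their SE was 0.14 each, so they do not differ beyond their error. Hnrnpul1 fell least, from 67.2 and 65.9 to 52.4 and 49.4 FPKM (-0.38 ± 0.12, SE), with an adjusted p of 0.0353 that was 0.0599 without limma's intensity trend. Hnrnpr was the lowest expressed, at 15.7 and 12.9 FPKM in shCtl and 10.5 and 8.7 in shWDR43 (-0.53). After centring, Hnrnph3 (-0.42), Hnrnpr (-0.20) and Hnrnpul1 (-0.05) no longer passed, and the other 15 did. The hnRNPs made up 1.07% and 0.998% of protein-coding FPKM in shCtl and 0.920% and 0.813% in shWDR43.

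The snRNP proteins had the lowest median of the 5 groups. All 12 fell, with a median of -1.19, and 11 of the 12 stayed lower after centring. Their share of protein-coding FPKM was 0.747% and 0.770% in shCtl and 0.564% and 0.535% in shWDR43. Snrpe, an Sm ring protein, had the lowest log2 fold change of all 48 (chr1:135500448-135506857, mm9). Its shCtl libraries had 718.9 and 761.9 FPKM and its shWDR43 libraries 327.0 and 252.9. Its means were 740 ± 30.4 and 290 ± 52.4 FPKM (SD, n = 2 each), and on the log2 scale it changed by -1.36 ± 0.14 (SE, limma adjusted p = 0.00121). Snrpa1, the U2-specific A' protein, came next, from 100.4 and 105.0 to 38.3 and 41.5 FPKM (-1.34). The order of the 2 is not firm, since the plain ratio of the means was 2.57 for Snrpa1 and 2.55 for Snrpe. Snrpf went from 158.6 and 148.8 to 60.0 and 65.4 (-1.28). In each of the 3 genes the lower shCtl library was more than 2 times the higher shWDR43 library.

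Snrpg was the most abundant snRNP gene, at 932.0 and 1012.3 FPKM in shCtl and 448.6 and 389.3 in shWDR43 (-1.21). Snrpn, which encodes the Sm protein of brain and stem cells from an imprinted locus, went from 80.0 and 81.3 to 38.7 and 28.5 FPKM (-1.25). The row of Snurf covers the whole Snrpn locus, and its 4.3, 4.4, 2.6 and 2.3 FPKM may share reads with it. Snrpd1 (-1.21), Snrpd3 (-1.17) and Snrpd2 (-1.14) lay within 1 SE of each other. Of the proteins specific to U1 and U2, Snrpb2 (-1.03) and Snrpa (-0.94) lay between Snrpa1 and Snrpc, a U1 protein, which went from 131.3 and 120.4 to 79.4 and 70.3 FPKM (-0.74).

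Snrpb, the ubiquitous counterpart of Snrpn in the ring, fell least of the Sm genes. Its shCtl libraries had 160.9 and 170.9 FPKM and its shWDR43 libraries 113.2 and 105.8 (log2 fold change -0.60 ± 0.12, SE, limma adjusted p = 0.00644), and missed the threshold after centring (-0.27, limma adjusted p = 0.0647). Its part of the summed FPKM of the 8 Sm genes was 4.83% and 4.95% in shCtl and 7.08% and 7.72% in shWDR43. Snrpe went the other way, from 21.6% and 22.1% to 20.4% and 18.4%. For Snrpd1, Snrpd2, Snrpd3, Snrpf, Snrpg and Snrpn the shares of the groups overlapped. The Snrpg part, for example, was 28.0% and 29.3% in shCtl and 28.0% and 28.4% in shWDR43.

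SF3A and SF3B had a median of -0.72, and 7 of their 8 genes fell. Sf3a3 fell most, from 103.2 and 97.6 to 54.5 and 46.6 FPKM (-0.98), and Sf3a1, which bridges to the U2 snRNP, from 53.5 and 50.1 to 30.1 and 27.0 (-0.84). Sf3a2, the third subunit of SF3A, did not pass: it stood at 43.6 and 43.1 FPKM in shCtl and 36.4 and 37.6 in shWDR43 (-0.22 ± 0.12, SE, limma adjusted p = 0.164). The groups of Sf3a2 do not overlap, but its fold change was 0.11 after centring. Sf3b1, the large subunit that contacts the branch point, stood at 120.9 and 89.6 in shCtl and 63.7 and 57.8 in shWDR43 (-0.77), with a wide gap between the shCtl libraries.

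The smallest change among the genes that passed in this group was that of Sf3b3, the most abundant of them, from 115.3 and 104.6 to 84.4 and 67.7 FPKM (-0.53, limma adjusted p = 0.0222). Sf3b5 (-0.54) and Sf3b3 did not pass after centring (-0.21 and -0.20). The share of the 8 genes in protein-coding FPKM was 0.129% and 0.118% in shCtl and 0.124% and 0.123% in shWDR43, so here the libraries of the groups overlapped, unlike the shares of the hnRNPs and snRNP proteins. For Sf3b5, a noncoding row covers 82.2% of the locus with 10.2, 10.8, 5.5 and 6.8 FPKM, beside 17.1, 18.2, 10.9 and 12.9 for Sf3b5.

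Both subunits of U2AF fell. U2af1, which reads the AG of the 3' splice site, had 287.6 and 281.4 FPKM in the shCtl libraries, against 148.0 and 123.9 in shWDR43 (-1.07 ± 0.13, SE, limma adjusted p = 0.00161). U2af2, which binds the polypyrimidine tract, went from 149.5 and 163.5 to 95.2 and 87.0 (-0.77 ± 0.12, SE, limma adjusted p = 0.00317). U2af1l4, a U2af1 paralog, stood at 9.7 and 12.2 in shCtl and 12.7 and 8.0 in shWDR43 (-0.10, limma adjusted p = 0.733). Its groups overlap, and its fold change was 0.23 after centring and above 0 without the second shCtl or the second shWDR43 library. An antisense row covers 30.6% of the U2af1l4 locus at 12.4, 13.5, 8.8 and 11.7 FPKM.

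Fall and level went together, within the splicing genes as among other genes. Across the 48 members, Spearman's rho between the log2 fold change and the mean FPKM was -0.50, and across 10664 protein-coding genes it was -0.43. These genes share 4 libraries and are not replicates. Fold changes of log2(FPKM + 1) understate those of low genes, and the part of this in the relation with level was not tested. Of the 24 members with a mean of at least 100 FPKM, 23 fell, against 89.5% of all 645 tested genes of that level, and the medians were -1.05 and -0.85. Between 30 and 100 FPKM, 19 of 20 members fell, against 75.6% of all tested genes of that level, with medians of -0.89 and -0.66, and between 10 and 30 FPKM 3 of 4 fell, against 54.8%. Of the members from 30 to 100 FPKM, 15 of 20 lay below the median of all genes of that level, and of those from 100 to 300 FPKM, 10 of 16. Locus length was weakly related to the fold change in both sets, with rho of 0.13 and 0.10.

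**Figure D2:**
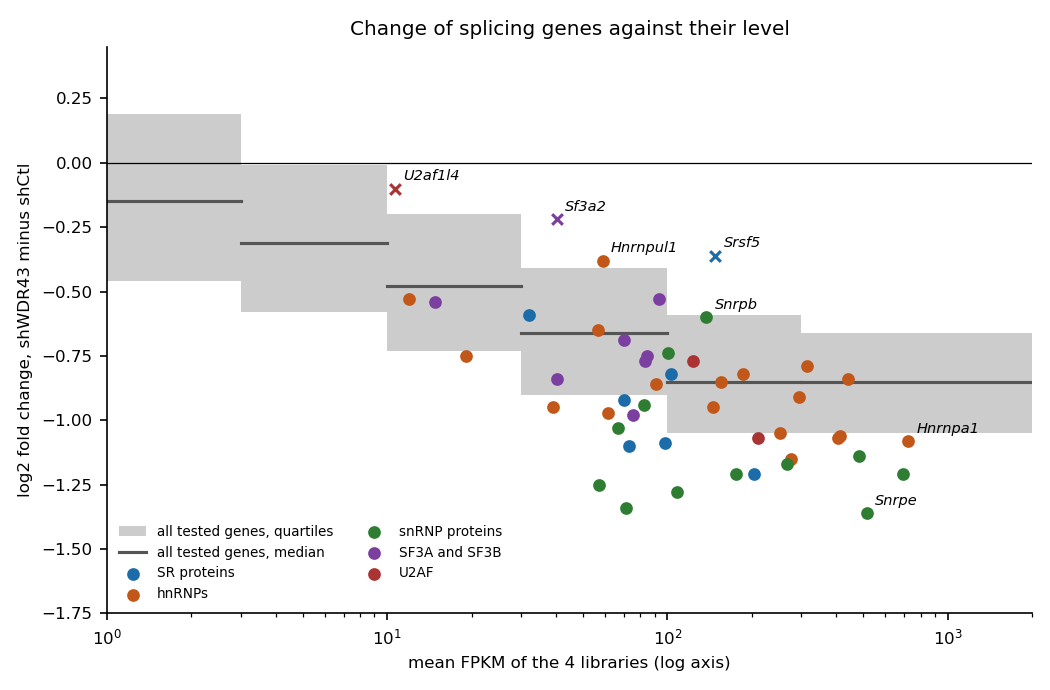
Log2 fold change (shWDR43 minus shCtl) of the 48 tested splicing genes against their mean FPKM (log axis). Grey boxes span the quartiles and dark lines mark the median of all tested genes in 6 ranges of FPKM, dots are genes that fell and crosses the 3 that did not pass. From 30 to 100 FPKM 15 of 20 genes lie below the median line, and at 300 FPKM and more 6 of 8 do.

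The authors' deposited table gives a signed fold change and an unadjusted p for the same genes. It lists 41 of the 49 at a signed fold of -1.5 or lower, 40 of them with a p under 0.05, and 1, Srsf12, above 0. The share of all rows at these cuts is not given here, so these counts have no background beside them. By limma, 42.7% of all tested genes fell, and 89.5% of those with a mean of at least 100 FPKM. In the authors' deposited table Hnrnpr stood at -1.49, Sf3b5 at -1.48, Sf3b3 at -1.45, Hnrnpul1 at -1.31, Srsf5 at -1.27, Sf3a2 at -1.17 and U2af1l4 at -1.06.

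Other genes of the splicing machinery, taken from a list written by function, had a smaller median change and a lower level. Their median of mean FPKM was 42.4, against 99.3 for the 48 members. Of 138 listed genes 134 were in the table and 132 were tested, of which 108 fell, 0 rose and 24 did not pass, with a median of -0.71. Of all tested genes 42.7% fell, as did 75.6% of those from 30 to 100 FPKM, where the median was -0.66. After centring, 69 of the listed genes were lower and 5 higher, against 20.9% and 13.0% of all tested genes. All 6 tested genes of the Lsm ring, which binds U6 RNA, fell (median -1.13), led by Lsm5 at 188.1 and 209.1 FPKM in shCtl and 92.9 and 74.8 in shWDR43. All 13 genes of snRNP assembly fell (median -0.77), among them Gemin4 of the SMN complex (-1.32), Prmt5, which methylates Sm proteins (-0.63), and Smn1 (-0.56). Of the other snRNP and U2-associated proteins 33 of 38 fell, with Nhp2l1, which binds U4 RNA, at -1.21 and Snrnp70 of U1 at -1.10.

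Among U5 proteins the calls were mixed. Prpf8, the core of the catalytic centre, did not pass, at 116.2 and 98.0 FPKM in shCtl and 96.9 and 80.5 in shWDR43 (-0.27). Snrnp200, the helicase that unwinds U4 from U6, did not pass either, at 73.1 and 60.6 and then 54.0 and 44.4 (-0.44). The U5 proteins Eftud2 (-0.68), Ddx23 (-0.53), Prpf6 (-0.47) and Snrnp40 fell, while Txnl4a (-0.27) did not pass. Of the exon junction and SR-related genes 13 of 14 fell (median -0.86), of the Prp19 complex and catalytic factors 16 of 23 (median -0.57), of the kinases that phosphorylate SR proteins 4 of 7 (median -0.58), and of the other regulators 23 of 31 (median -0.64). Srpk1, a kinase of SR proteins, fell from a mean of 56.0 ± 8.56 to 26.1 ± 2.62 FPKM (SD, n = 2 each, -1.07), and Clk1 stood at 65.4, 56.3, 49.1 and 54.6 (-0.22, not passed). Beside these counts, 75.6% of all tested genes from 30 to 100 FPKM fell, and 54.8% of those from 10 to 30 FPKM. The 2 sets of splicing genes were chosen by name and by function and differ in level, and the difference between their counts was not tested.

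The start of another protein-coding gene lay within 1 kb in the opposite direction for 11 members, and 10 of these neighbours were tested: 5 fell and 5 did not pass, where 42.7% of all tested genes fell, so the neighbours' count is near the background. Cbx3, a heterochromatin protein whose start lies 721 bp from that of Hnrnpa2b1, had a log2 fold change of -1.63, beside -1.07 for Hnrnpa2b1. Rmi1, 80 bp from Hnrnpk, fell too (-0.90). BC024978, 20 bp from Snrpa, stood at 3.7, 4.5, 3.7 and 4.0 FPKM (-0.07), and Ccdc157, 60 bp from Sf3a1, at 1.3, 1.8, 1.2 and 1.5 (-0.11). Peaks at such a shared start cannot be assigned to 1 gene.

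WDR43 peaks lay within 1 kb of either end of 41 of 48 members in DMSO (71.0% of 10664 tested protein-coding loci), 43 in FB (86.1%) and 44 in cFB-KI (84.6%), but of 13 under DRB (10.5%) and 0 under ActD (0.244%). Peaks were also placed by the strand that RefSeq gives, which 42 of the 48 tested members and 8080 of the protein-coding loci had, and a start peak lies within 1 kb of the start of the locus. WDR43 peaks lay at the start of 35 of 42 members in DMSO (69.5% of coding loci), 37 in FB (84.6%) and 38 in cFB-KI (83.5%). Under DRB 10 members had one (9.96% of coding loci), and under ActD 0 (0.161%). The 10 were Hnrnpa0, Hnrnpa3, Hnrnpab, Hnrnpk, Hnrnpul1, Sf3b1, Sf3b3, Srsf1, Srsf4 and Srsf6, with no snRNP protein among them. Of the members without a strand, Sf3b4, U2af2 and Snrpd1, an snRNP protein, had a DRB peak at an end. All 10 had a peak in DMSO too, so 28.6% of the 35 members with a DMSO start peak kept one under DRB, against 12.8% of 5616 coding loci. The lists held 31189 peaks in DMSO, 4426 in DRB, 407 in ActD, 41552 in FB and 21553 in cFB-KI, from 1 library each, so these differences have no replicate check and depth is unknown.

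The WDR43 peaks sat on the starts. Their centres had a median of -8 bp from the start in DMSO (35 members), 42 bp in FB (37) and 75 bp in cFB-KI (38), where negative values lie upstream. At Hnrnpd the DMSO peak was at chr5:100407660-100408045 (mm9), centred 105 bp downstream of the start, and at Snrpe at chr1:135506478-135507149, centred 44 bp downstream. Scores are the authors' and rank peaks within a list only. The median member stood at the 87.3th percentile of scores in DMSO, against 72.0 for all coding loci with a start peak, and at the 93.6th against 80.5 in FB. In 33 members DMSO, FB, cFB-KI and all 4 hypoP lists had a start peak together. The share of coding loci with all of these together is not given here. Such peaks were common taken singly, at 69.5% of coding loci in DMSO, 84.6% in FB and 83.5% in cFB-KI, and 84.1% had one in all 4 hypoP lists.

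Srsf11 and Snrpn had a start peak in none of DMSO, FB and cFB-KI. For Srsf11 no list of any kind had a peak at the listed start, but 3 WDR43 lists had one about 8 kb upstream, centred at -8198 bp in DMSO, -8234 in FB and -8172 in cFB-KI. All 4 hypoP lists had peaks between -8228 and -8242 bp, and RefSeq gives 2 starts for the gene, 4858 bp apart. Snrpn had hypoP peaks in all 4 lists, centred 727, 828, 1048 and 988 bp downstream of the listed start, and no WDR43 peak within 20 kb of that start. RefSeq gives 4 starts for Snrpn, spread over 444978 bp in a later build, and peaks at its other starts were not looked for. Hnrnpf had peaks more than 1 kb inside the gene in every list but ActD, and at its listed start in cFB-KI and all 4 hypoP lists. The WDR43 peaks nearest to the listed start lay at 6688 bp in DMSO, 6596 bp in DRB and 7068 bp in FB, and at 306 bp in cFB-KI. HypoP peaks covered 6861 and 7248 bp of the locus in shCtl and 8394 and 7800 bp in shWDR43, of which the start peaks, 1582 to 1814 bp wide, make up the smaller part. The nearest Ser5P peaks lay inside the gene, at 6771 and 7068 bp in shCtl and 7441 and 7144 bp in shWDR43. RefSeq gives Hnrnpf starts at 6442, 7464 and 16954 bp from the first, in a later build, and the second of these 4 is the GC-rich window shown above.

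**Figure D3:**
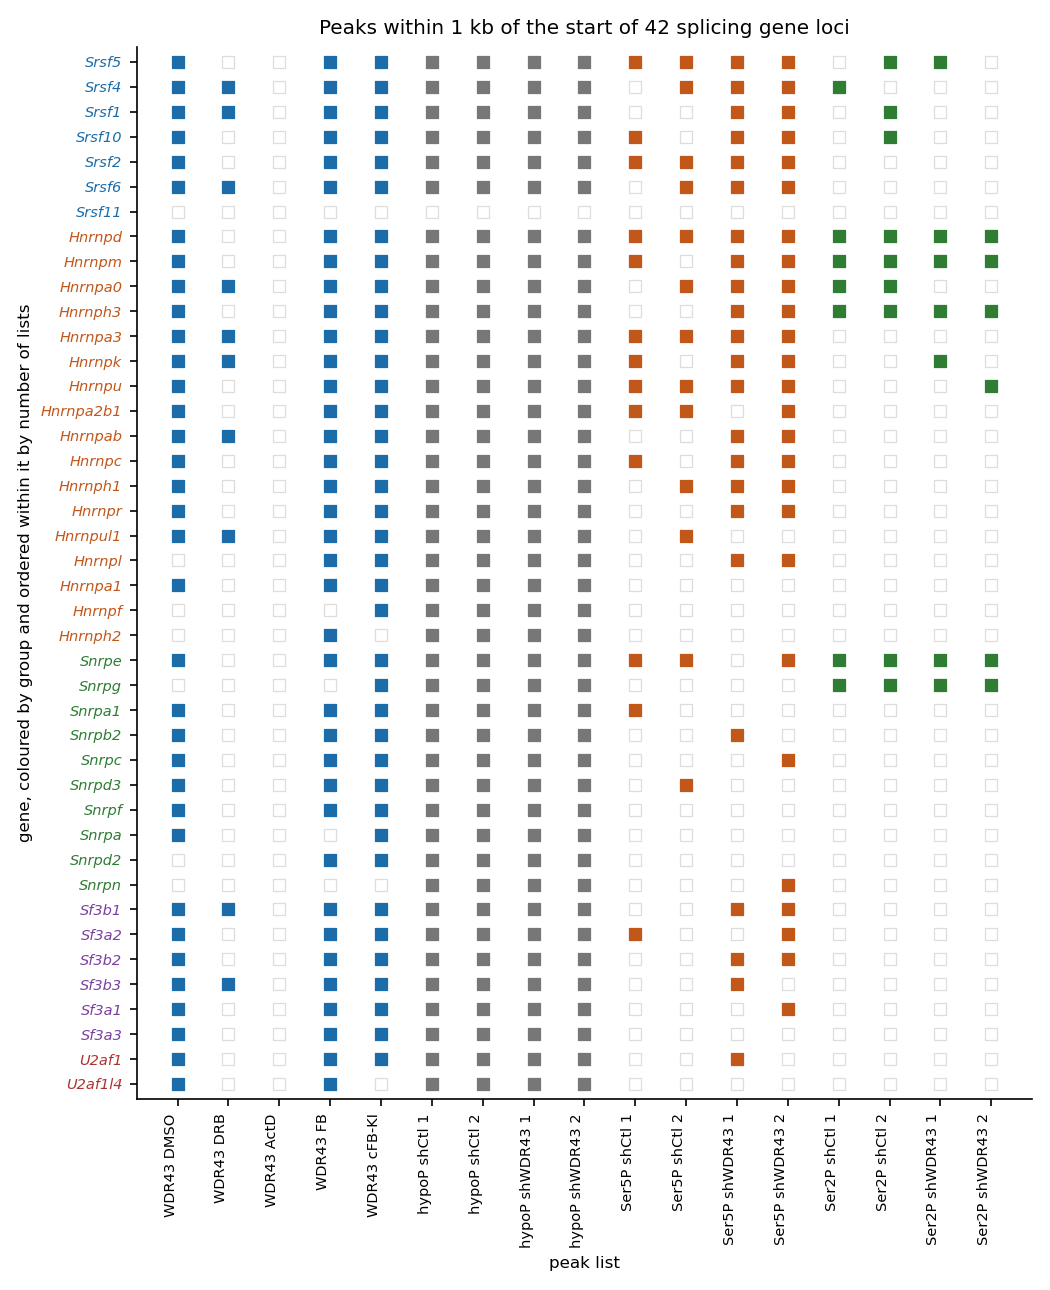
Peaks within 1 kb of the start of the 42 genes with a strand (rows, by group) in 17 lists (columns). A filled square marks a peak: the ActD column is empty, 41 of 42 rows are filled in all 4 hypoP lists, and Srsf11 has an empty row.

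HypoP Pol II lay at either end of 47 of 48 members in each of the 4 lists (87.3% and 87.1% of coding loci in shCtl, 92.3% and 90.3% in shWDR43). It stood at the start of 41 of 42 members in each of the 4 lists, against 86.8% and 86.5% of coding loci in shCtl and 91.4% and 89.6% in shWDR43. No member gained or lost a start peak, where a gain means a peak in both shWDR43 and in no shCtl library and a loss the reverse, against 2.22% and 0.334% of coding loci. The same 47 members had a peak at either end in all 4 lists, so 0 were gained and 0 lost (2.43% and 0.234%), where both shCtl libraries covered 85.7% of coding loci and both shWDR43 libraries 89.6%. The hypoP peaks of the members were wide, with medians of 2444 and 2493 bp in shCtl and 2832 and 2664 bp in shWDR43, against 1659, 1756, 2000 and 1756 bp at all coding starts. Of the members' locus length, 10.3% and 10.9% lay under hypoP peaks in shCtl and 12% and 10.9% in shWDR43. In 16 of 48 members more bases were covered in both shWDR43 than in both shCtl libraries, against 39.7% of coding loci, and in 5 fewer, against 3.28%. The 5 were Hnrnpa2b1, Hnrnpd, Hnrnpk, Hnrnpul1 and Sf3a2. The hypoP lists themselves held 19542 and 19561 peaks in shCtl and 31473 and 24485 in shWDR43, and with 2 libraries a side an exact two-sided permutation test cannot go below p = 0.333.

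Ser5P Pol II, the form that marks early transcription, was listed at more member starts in shWDR43. At either end, peaks were listed for 13 and 17 of 48 members in shCtl (9.83% and 12.7% of coding loci) and 24 and 29 in shWDR43 (30.1% and 35.3%). It had a start peak at 13 and 13 of 42 members in the shCtl libraries (9.10% and 11.8% of coding loci) and at 23 and 26 in the shWDR43 libraries (28.3% and 33.8%). At the start, both shCtl libraries held 7 members in common (2.95% of coding loci) and both shWDR43 libraries 20 (18.5%). At either end these counts were 7 (3.51%) and 21 (20.0%). Gained start peaks were found at 7 of 42 members, Hnrnpab, Hnrnph3, Hnrnpl, Hnrnpr, Sf3b1, Sf3b2 and Srsf1, against 10.6% of coding loci, and 0 were lost, against 0.384%. At either end 6 were gained, the same genes without Sf3b2, against 11.2%, and 0 lost, against 0.328%. They are 4 hnRNPs, 2 subunits of SF3B and 1 SR protein. The whole Ser5P lists held 1879 and 2520 peaks in shCtl and 6535 and 7589 in shWDR43, so more peaks were listed genome-wide too.

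More bases of the members lay under Ser5P peaks as well: 1.60% and 1.89% of their length in shCtl and 5.78% and 7.03% in shWDR43, against 0.110%, 0.151%, 0.571% and 0.661% for all coding loci. In 21 of 48 members both shWDR43 libraries covered more than both shCtl libraries, against 18.1% of coding loci, and in 0 fewer, against 0.366%. No base was covered in any of the 4 lists at 11 of 48 members and at 48.4% of coding loci. Among loci with any coverage, more bases were covered in 21 of 37 members (56.8%) and in 35.1% of 5501 coding loci. At Srsf2 the peak spanned 1562 and 1760 bp in shCtl, over 987 and 1189 bp of the 3198 bp gene, and 6579 and 7092 bp in shWDR43, over all of the gene. In bases covered, Hnrnpf had more, 882 and 1788 bp in shCtl and 5811 and 4727 bp in shWDR43. At Srsf1 no base was covered in shCtl and 1553 and 1574 bp of 6385 were in shWDR43, and at Hnrnpl 0 bp and then 2307 and 2784 bp of 11377. The RNA of these 4 genes was lower in shWDR43.

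Ser2P Pol II, the elongating form, was found mostly at the ends of the members. At either end, 23 and 27 of 48 members had a peak in shCtl (27.2% and 29.5% of coding loci) and 25 and 23 in shWDR43 (24.2% and 24.7%). It stood within 1 kb of the end of 15 and 17 of 42 members in shCtl (22.6% and 24.9% of coding loci) and of 18 and 15 in shWDR43 (18.7% and 19.1%). In 10 of 42 members all 4 lists had an end peak, against 11.4% of coding loci. Both shCtl libraries had a peak at either end in 20 of 48 members (22.2%) and both shWDR43 libraries in 21 (19.4%), with 1 gained (Hnrnpa1, 1.23%) and 0 lost (3.21%). At the start, Ser2P peaks were listed at 7 and 9 members in shCtl (8.23% and 9.21% of coding loci) and 7 and 6 in shWDR43 (8.85% and 9.10%), and 5 members had one in all 4 lists, against 5.22% of coding loci: Hnrnpd, Hnrnpm, Snrpe, Hnrnph3 and Snrpg. The peaks reached well past the ends, by a median of 2838 and 3496 bp in shCtl and 2942 and 3039 bp in shWDR43, against 2217, 2347, 2073 and 2083 bp at all coding loci. Hnrnpa1 was the 1 member that gained an end peak (0.854% of coding loci did), reaching 6141 and 5814 bp past the end in shWDR43, and none lost one (3.29%).

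Inside the genes, Ser2P peaks were listed at fewer members in shWDR43. More than 1 kb from either end, 8 of 48 members had a Ser2P peak in both shCtl libraries (7.02% of coding loci) and 2 in both shWDR43 libraries (5.77%). Hnrnpa0, Sf3a2, Srsf11, Srsf6, U2af1 and U2af2 had one in both shCtl and in no shWDR43 library. These were 6 of 48 members against 1.58% of coding loci, and 0 had the reverse, against 0.591%. Only loci with one in both shCtl libraries could count here: 6 of 8 members did, and 169 of 749 coding loci. All but U2af2 recur below among genes with a nearer gene-side edge, a count near the background, so the 2 counts are not separate. At U2af1 the peak began 2338 and 3264 bp before the end in shCtl and 202 and 335 bp before it in shWDR43. Its far side lay 2447 and 2443 bp past the end in shCtl and 2783 and 2696 bp in shWDR43, so the peak was shorter on the gene side only. At Srsf6 it covered 1452 and 1492 bp of the gene in shCtl and 0 bp in shWDR43, where it began beyond the end (-788 and -845 bp before it) and still reached 5398 and 4945 bp past it, beside 5100 and 5383 bp in shCtl.

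The gene-side edge differed in 6 of the 10 members with an end peak in all 4 lists: in Hnrnpa0, Hnrnph1, Sf3a2, Srsf11, Srsf6 and U2af1 it lay nearer to the end, or beyond it, in both shWDR43 libraries than in both shCtl libraries. This was so for 47.0% of the 925 coding loci with an end peak in all 4 lists, so the members' 6 of 10 is near the background. The reverse held for U2af1l4, and for 4.54% of coding loci. The far edge lay nearer in Snrpd3 and farther in Hnrnpl and U2af1, against 33.6% and 9.41% of coding loci. In all, 8 of 48 members had fewer bases under Ser2P peaks in both shWDR43 libraries, against 8.51% of coding loci, and Hnrnpa1 and Hnrnpf had more, against 2.72%. No base was covered in any of the 4 lists at 23 of 48 members and at 66.1% of coding loci. Among loci with any coverage, fewer bases were covered in 8 of 25 members (32%) and in 25.1% of 3615 coding loci. The Ser2P lists held 3878 and 4319 peaks in shCtl and 3501 and 3504 in shWDR43, with median widths of 1918 and 2018 bp and of 1660 and 1683 bp, so narrower peaks were found genome-wide, and their part in these shifts was not tested.

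**Figure D4:**
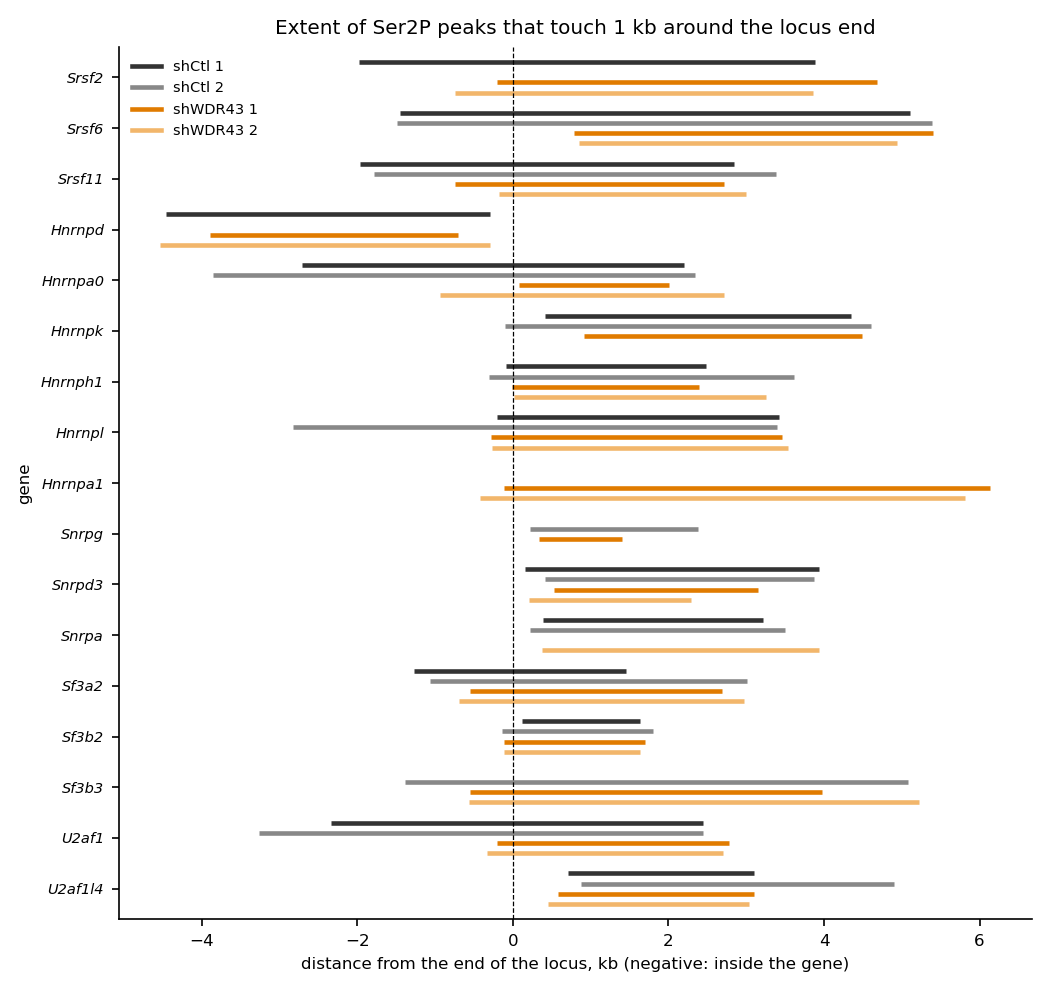
Span of the Ser2P peaks that touch the 1 kb around the locus end, for the 17 genes with such a peak in at least 2 lists. The x axis is the distance from the end in kb, negative inside the gene, and each bar runs from the outermost edge on the gene side to the outermost edge on the other. At Srsf6, Srsf11, Hnrnpa0 and U2af1 the orange shWDR43 bars start farther right than the black and grey shCtl bars, while the right ends differ less.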

How the data were processed

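RNA was measured in 4 libraries; per the file headers these are 2 biological replicates a group. Values are FPKM made by the authors with TopHat and Cufflinks on mm9, per the submitters' processing notes; the header does not write the unit, which was taken from the tool, and no source used here gives depth or strand of counting. The deposited fold and unadjusted p-value were copied. Peaks, with the authors' score of at least 50 in every list, were called per library after Bowtie2 alignment; MACS is named in the peak names. Genes with a mean of at least 1 FPKM were tested as log2(FPKM + 1) over all 12452 such rows, with limma 3.58.1 (R 4.3.3, intensity trend, Benjamini-Hochberg, threshold 0.05), checked on simulated data. Fold changes on this scale understate those of low genes. Tables were joined with Python 3.11.15 and pandas 2.3.3. A start or end peak overlaps the 1 kb around that end, and an inside peak the locus more than 1 kb from both. Members and lists were chosen with earlier results of these data known. Named genes are, per group, the 2 lowest and 2 highest fold changes, the highest level and members not called, and members whose peak calls differ between the groups; others named were chosen after their values were seen. Placing peaks by RefSeq strand was an alternative added after seeing the data. Same-numbered RNA libraries share only a number (correlation of deviations 0.050).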

Additional observations from a re-analysis of the deposited data

How the results depend on the processing

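Of the 48 members, 45 fell with a pseudocount of 0.1, 44 without the intensity trend, 46 with at least 5 FPKM and 46 with the replicate number as a block, where 0 rose. Srsf5 was added by the last 2 settings (limma adjusted p = 0.0405 and 0.0436) and Hnrnpul1 lost without the trend. With no filter 4 fell. The share of all tested genes that fell is not given for these settings, and it was 42.7% in the fit of the Results. Whether the members differ from other genes under each setting was not tested. Fits without 1 replicate keep 1 residual degree of freedom, so only their fold changes are given. U2af1l4 turned to 0.23 after centring, to 0.05 without the second shCtl and to 0.21 without the second shWDR43 library (range over libraries left out -0.40 to 0.21), and Sf3a2 to 0.11 after centring. A Ser5P peak lay at either end of 7 members in both shCtl libraries (3.51% of coding loci), and of 2 among peaks above the median score. In either shCtl library 23 members had one (19.1%), and 13 to 17 did with 1 library left out (9.83% to 12.7%). In shWDR43 the number was 21 in both libraries (20.0%) and 32 in either (45.4%). For Ser2P the number in both shCtl libraries was 20 (22.2% of coding loci), and 11 above the median score. It was 7 when 50% of the peak had to lie in the window and 6 at the start alone (6.53%). In shWDR43 it was 21 (19.4%), then 7 and 5 (6.97%) for these last 2 settings. Coding shares for the score and 50% settings are not given here. Why the counts differ between settings was not tested. FPKM and peak scores carry no depth, so no counting error can be given.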

Other observations

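Srsf3, Srsf7 and Srsf9, whose rows are typed nc, carry symbols of SR proteins and were measured in the same libraries. The shCtl libraries had 291.9 and 281.7 FPKM of Srsf3 and the shWDR43 libraries 140.1 and 116.5. Srsf7 stood at 164.1 and 164.4 and then 77.8 and 66.9, and Srsf9 at 64.3 and 66.6 and then 35.6 and 35.1. In all 3 both shWDR43 libraries lay below both shCtl libraries.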
